A study of Mus musculus with 6 samples.

Results

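The solute carriers (Slc genes) described here encode the membrane proteins that move amino acids, sugars, nucleosides, vitamins, ions and metals across the plasma membrane and the membranes of lysosomes, the Golgi and the endoplasmic reticulum. RNA sequencing measured their transcripts in mouse macrophages cultured from bone marrow with the growth factor M-CSF. One group of wild-type cells received interferon-gamma (IFN-γ), the T cell and NK cell cytokine that arms macrophages against microbes, for 3 h (3 libraries), and the other group of wild-type cells was left untreated, also labelled 3 h (3 libraries). All were grown in 20 ng/mL M-CSF, and the labels give no IFN-γ dose, strain, sex or age. Members were genes whose symbol starts with Slc, a family number, the letter a and a digit. The mitochondrial Slc25 family and 9 genes of iron, arginine, cystine, glucose and lactate transport were left out. Membership further required at least 1 CPM (counts scaled by the total of the library) in at least 3 of the 6 libraries. Of 36706 genes in the tables, 294 had such a symbol and 127 were members, all of which passed the low-count filter of the test. The other 167 were below the threshold, and 3 members encode no carrier (Slc9a3r1, Slc4a1ap and Slc7a6os). Slc7a4 and Slc6a17, whose third-highest library was at 1.09 and 1.15 CPM, lay just inside the threshold, and Slc26a10 and Slc13a2, at 0.924 and 0.889, just outside it. Slc7a4 and Slc6a17 reached 1 CPM in untreated libraries only, so the rule itself left them little room to be higher with IFN-γ.

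Solute carriers are named by family number, and members of a family share an ancestry more than a substrate. Some couple uphill transport to the sodium gradient kept by the sodium pump, others are facilitators or exchangers, and several act inside the cell, where they empty or fill lysosomes and secretory vesicles. Macrophages are known to use them to feed on digested cargo, to keep metals away from microbes or to load metals onto them, and to hand peptides to sensors in endosomes.

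The tables held between 32628170 and 34233607 counts per IFN-γ library and between 28133342 and 31173432 per untreated library. The members took 0.813 to 0.906% of them with IFN-γ and 0.747 to 0.851% untreated. A floor of 3 counts in 1 library is 0.0876 to 0.107 CPM, which covers counting error only. Untreated replicates differed among themselves more than IFN-γ replicates did (chi-square per degree of freedom 27.5 to 81.1, against 2.05 to 17.1 between IFN-γ replicates), and untreated replicate 2 had the lowest share of member counts. The labels do not say whether replicates are separate mice or separate wells, so the p-values reflect only how much these libraries differ, and that spread may be technical. All 7 macrophage markers were expressed, among them Lyz2, Cd68 and Csf1r. The neutrophil list summed to between 529 and 551 TPM (abundance per transcript length, scaled to a fixed total per library) with IFN-γ and between 341 and 400 TPM untreated, nearly all from S100a8 and S100a9. Ly6g of that list averaged 0.0457 TPM with IFN-γ and 0.024 TPM untreated, and the B cell, T cell, mast cell, fibroblast, erythroid and dendritic cell lists each summed to under 1 TPM in every library. The endothelial list (Pecam1 and Cdh5) summed to between 1.56 and 1.65 TPM with IFN-γ and between 0.932 and 1.46 TPM untreated, and Pecam1 was called higher (0.65 ± 0.20, adjusted p = 0.0318, edgeR). The part of neutrophil and endothelial RNA in the results below was not tested. In bulk RNA, fewer cells of a type and less RNA per cell cannot be told apart.

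IFN-γ changed the transcripts of solute carriers in both directions. Of 127 members, 35 rose and 27 fell, a call being an adjusted p under 0.05 from edgeR's quasi-likelihood test (Benjamini-Hochberg over 12968 genes). The shares were 27.6% higher and 21.3% lower, against 19.6% and 16.8% of all genes tested, or 48.8% against 36.4% in either direction. At 2 times or more, 7 members (Slc2a6, Slc28a2, Slc23a2, Slc31a2, Slc31a1, Slc15a3 and Slc30a4) were higher and 1 (Slc26a11) was lower. These are 5.51% and 0.787% of the members, near the 6.17% and 1.94% of all genes, which also held more large rises than large falls. The groups did not overlap for 80 members, or 63.0%, against 50.1% of all genes. In these shares, members had to reach 1 CPM in 3 libraries, while all genes tested had only to pass the low-count filter. The part of expression level in the differences was not tested. The median log2 fold change was -0.003 over the members and -0.014 over all genes.

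The balance of the small changes depended on how libraries were scaled and on single libraries. The main scaling (TMM) was relative to the bulk of genes. Upper quartile scaling moved the median of all genes to -0.161 and gave 25 members higher (19.7%, against 13.9% of all genes) and 49 lower (38.6%, against 31.6%). Total counts alone moved the median to -0.184 and gave 21 higher (16.5%, against 12.8%) and 52 lower (40.9%, against 34.9%). Without IFN-γ replicate 1, 23 members were higher and 26 lower. Over all genes that fit gave 2028 higher and 1742 lower, against 2539 and 2176 with every library. Under every one of the 14 alternatives no member called in 1 direction was called in the other, 20 of the 35 rises and 17 of the 27 falls kept their call throughout, and all 62 kept their sign.

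**Figure D1:**
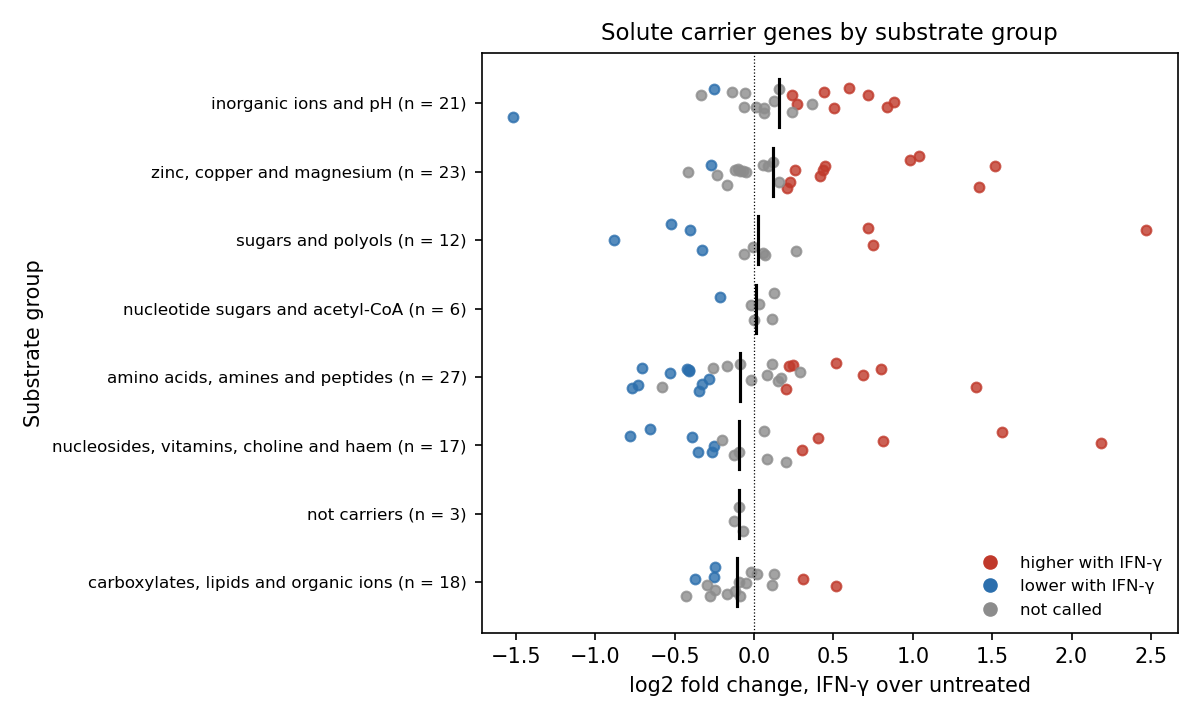
Log2 fold change of each of the 127 members, IFN-γ over untreated, by substrate group (n is the number of members, points are genes, black lines are group medians, heights within a group are random). Most points lie within 1 log2 unit of 0, and the 7 points above 1 lie in the metal, sugar, amino acid and nucleoside groups, with Slc26a11 at -1.52 in the ion group.

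The 2 largest rises were those of a sugar and a nucleoside carrier. Slc2a6 encodes GLUT6, a member of the facilitative glucose transporter family that resides on lysosomes. It stood at 59.6, 59.3 and 56.2 CPM with IFN-γ, against 10.1, 10.4 and 11.1 CPM untreated (here and below with TMM-scaled totals). Every IFN-γ library was thus above every untreated one by more than the spread within either group. This was a 5.53-fold rise, or 2.47 ± 0.07 on the log2 scale (SE, adjusted p = 5.33e-08, edgeR's quasi-likelihood test, as for every adjusted p below; changes below are log2 fold changes ± SE). The tables place Slc2a6 on chromosome 2, minus strand, from 26911375 to 26918011.

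Slc28a2 encodes a sodium-coupled carrier that concentrates purine nucleosides such as adenosine. It had 141, 139 and 139 CPM with IFN-γ, against 30.1, 29.0 and 32.9 CPM untreated. The IFN-γ libraries were nearly identical and far above all untreated libraries. The log2 fold change was 2.19 ± 0.06 (adjusted p = 7.88e-08). Slc28a2 lies on chromosome 2, plus strand, from 122256836 to 122291633. In the GENCODE M21 annotation, 35.4% of its 50-base stretches also occur in Gm14085. Its relative Slc28a2b was no member, with 6 to 12 counts in the IFN-γ libraries and 5 to 7 in the untreated ones.

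Slc23a2 encodes SVCT2, the sodium-coupled ascorbate carrier, and is on chromosome 2, minus strand, from 131894416 to 131987240. Its CPM were 406, 330.0 and 313 with IFN-γ, against 134, 93.8 and 128 untreated. The groups were well apart, although IFN-γ replicate 1 was the highest and untreated replicate 2 the lowest by a clear margin. The log2 fold change was 1.56 ± 0.15 (adjusted p = 8.93e-05), and it ranged from 1.39 to 1.66 over the alternatives.

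The copper carriers rose together. Slc31a1 encodes CTR1, which brings copper into cells, and Slc31a2 encodes the related CTR2, which acts mostly on internal membranes. Slc31a2 had 204, 214 and 212 CPM with IFN-γ, against 72.1, 74.8 and 73.1 CPM untreated. Slc31a1 had 343, 326 and 333 CPM with IFN-γ, against 124, 118 and 133 CPM untreated. For each gene the IFN-γ libraries lay more than 100 CPM above the untreated ones. The log2 fold changes were 1.52 ± 0.05 (adjusted p = 2.05e-07) for Slc31a2 and 1.42 ± 0.06 (adjusted p = 9.36e-07) for Slc31a1. Both lie on the plus strand of chromosome 4, Slc31a2 from 62198630 to 62216649 and Slc31a1 from 62278821 to 62310006, a gap of 62.2 kb.

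Slc15a3 encodes a proton-coupled carrier that moves histidine and small peptides out of endosomes and lysosomes, and it had the highest TPM of the members with IFN-γ, though not untreated. It had 699.6, 584 and 574 CPM with IFN-γ, against 239, 227 and 239.8 CPM untreated. IFN-γ replicate 1 was the highest, and all IFN-γ libraries were more than 2 times any untreated one. The log2 fold change was 1.40 ± 0.09 (adjusted p = 6.37e-06). The tables place it on chromosome 19, plus strand, from 10819908 to 10835279, where 3.7% of its exon length lies under Tmem132a on the other strand.

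Slc30a4, which encodes a zinc carrier that fills vesicles, stood at 67.6, 69.0 and 71.8 CPM with IFN-γ and at 35.6, 30.01 and 35.6 CPM untreated. The groups were clearly separate. Its log2 fold change of 1.04 ± 0.08 (adjusted p = 2.13e-05) was close to the 2-fold limit and was 0.87 with total counts. It lies on the minus strand of chromosome 2 from 122523153 to 122544583, 231.5 kb from Slc28a2.

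Slc26a11 encodes an anion carrier of the sulphate transporter family and was the 1 member lower by 2 times or more. It had 5.98, 5.54 and 4.96 CPM with IFN-γ, against 15.9, 16.2 and 15.1 CPM untreated. The groups were far apart and each was tight. The log2 fold change was -1.52 ± 0.09 (adjusted p = 4.68e-06). The gene is on chromosome 11, plus strand, from 119246328 to 119271902, next to Sgsh on the other strand.

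**Figure D2:**
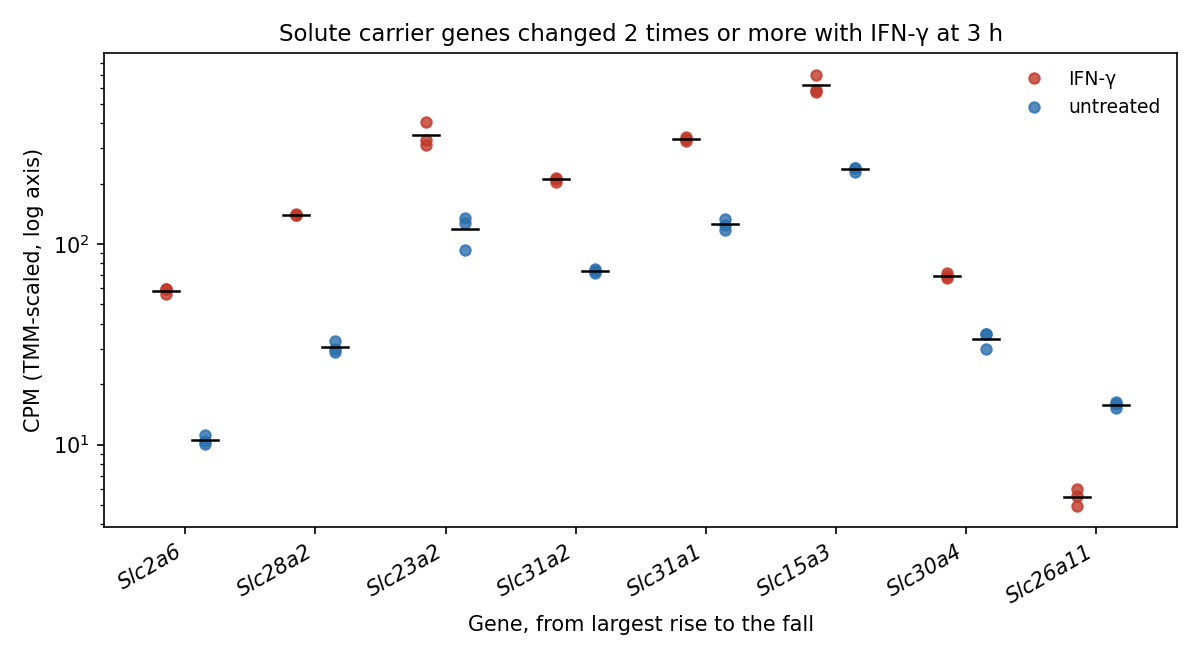
CPM of the 8 members changed 2 times or more, on a log axis, with 1 point per library (IFN-γ left, untreated right, 3 libraries each) and a black line at the group mean. In each gene all IFN-γ points lie on 1 side of all untreated points, and Slc26a11 is the gene with the IFN-γ points below.

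GAS and ISRE elements are DNA motifs known from the promoters of interferon-responsive genes, so their letters were looked up in the promoters of the members. RefSeq (GRCm38.p6) gave a promoter for 96 of 127 members, read here as the 250 bases before the annotated start. The letters TTCNNNGAA (GAS) occurred on either strand in 5 of the 96 members (5.21%), against 8.13% of 27025 genes with a promoter. The ISRE letters, a pair of GAAA repeats with 2 bases of any kind between them, occurred on either strand in 1 member (1.04%), against 3.46% of all. Of the 31 risen members with a promoter, 2 held the GAS letters (6.45%) and 1 the ISRE letters (3.23%). Of the 20 fallen ones none held either, and of the 45 not called 3 held the GAS letters (6.67%) and none the ISRE letters. The promoters of these 3 risen members are printed because they are the ones that pair a rise with such letters. Slc28a2 was chosen by rule and the others after their values were seen. Capitals mark the motif letters, no motif overlaps another, and all run 5′ to 3′ toward the start on the gene's own strand. A match is a description of letters, not of binding.
Slc28a2, GAS letters, GRCm38.p6 chr2:122426185-122426434, plus strand: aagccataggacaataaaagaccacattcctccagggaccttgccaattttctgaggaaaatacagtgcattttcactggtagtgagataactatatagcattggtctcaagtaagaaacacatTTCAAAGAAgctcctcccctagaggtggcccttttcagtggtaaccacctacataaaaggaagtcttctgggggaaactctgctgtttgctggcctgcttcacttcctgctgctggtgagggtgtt
Slc37a1, ISRE letters, GRCm38.p6 chr17:31295974-31296223, plus strand: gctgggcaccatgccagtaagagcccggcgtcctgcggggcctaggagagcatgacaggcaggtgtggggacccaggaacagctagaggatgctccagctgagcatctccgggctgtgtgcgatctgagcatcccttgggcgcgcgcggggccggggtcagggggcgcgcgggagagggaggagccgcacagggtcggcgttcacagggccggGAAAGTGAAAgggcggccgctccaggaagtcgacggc
Slc22a15, GAS letters, GRCm38.p6 chr3:101924454-101924703, minus strand: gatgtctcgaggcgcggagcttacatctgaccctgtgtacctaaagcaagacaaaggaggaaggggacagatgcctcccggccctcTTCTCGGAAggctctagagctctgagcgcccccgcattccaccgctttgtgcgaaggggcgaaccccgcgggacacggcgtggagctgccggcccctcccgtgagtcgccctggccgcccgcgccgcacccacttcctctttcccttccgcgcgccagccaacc

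The motif letters begin 126 bases before the start of Slc28a2, 37 bases before that of Slc37a1 and 164 bases before that of Slc22a15. Slc37a1, a member of the sugar phosphate exchanger family, averaged 5.94 ± 0.181 CPM with IFN-γ and 3.53 ± 0.711 CPM untreated (SD, n = 3 each), a log2 fold change of 0.75 ± 0.14 (adjusted p = 0.0037). Of the 7 members higher by 2 times or more, 6 had a promoter in the table, and Slc28a2 was the 1 with either motif.

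Among metal carriers, more rose than fell. Of 23 zinc, copper and magnesium carriers, 10 rose (43.5%, against 19.6% of all genes), 1 fell (4.35%, against 16.8%) and 12 were not called. The median log2 fold change was 0.119. Upper quartile scaling gave 7 higher and 5 lower with a median of -0.027. Total counts gave 7 and 6 with a median of -0.053. Those scalings moved the median of all genes as well, from -0.014 to -0.161 and -0.184. They gave 13.9% of all genes higher and 31.6% lower with upper quartile scaling, and 12.8% and 34.9% with total counts. The group median thus fell below 0 but stayed above that of all genes. Without any 1 IFN-γ replicate or untreated replicate 1, 8 members rose, and without untreated replicate 3, 7 rose. Without IFN-γ replicate 1 or untreated replicate 2, 2 members fell. After the copper carriers came the zinc carriers of the SLC30 family, which move zinc out of the cytosol. Slc30a1, which encodes the zinc exporter of the plasma membrane, averaged 79.5 ± 0.809 CPM with IFN-γ and 40.3 ± 1.15 CPM untreated (SD, n = 3 each), a log2 fold change of 0.98 ± 0.05 (adjusted p = 2.93e-06). Its IFN-γ values of 80.4, 79.1 and 79.0 CPM were about as tight as its untreated values of 40.9, 41.1 and 39.0 CPM. Of 6 SLC30 members, 4 rose (Slc30a1, Slc30a4, Slc30a6 and Slc30a7), 1 fell and 1, Slc30a9, was not called. The rises were 66.7% of the family, against 19.6% of all genes. Slc30a7, which supplies the Golgi, rose by 0.44 ± 0.07 (adjusted p = 0.00123). Slc30a5, also of the Golgi and the secretory pathway, was lower, at 66.0, 66.9 and 67.0 CPM with IFN-γ and 79.4, 80.4 and 81.2 CPM untreated (log2 fold change -0.27 ± 0.05, adjusted p = 0.00336). Slc30a6 rose by 0.22 ± 0.06 (adjusted p = 0.0254) and lost its call under 7 alternatives, total counts among them.

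The SLC39 family brings zinc into the cytosol. Of its 12 members, 3 rose, none fell and 9 were not called, with a median log2 fold change of 0.019. Among all genes, 19.6% rose, 16.8% fell and 36.4% were called. The share of the family that rose was thus a little above that of all genes, and the share called was below it. Slc39a1, a zinc importer of the plasma membrane, stood at 179 TPM with IFN-γ, below Slc31a2 at 209 TPM, and at 145 TPM untreated, the highest metal carrier there. It had 204, 215 and 214 CPM with IFN-γ, against 152, 168 and 155 CPM untreated. The log2 fold change was 0.42 ± 0.06 (adjusted p = 0.000917), and 21.8% of its sequence is shared with the pseudogene Slc39a1-ps. Slc39a13 rose by 0.45 ± 0.06 (adjusted p = 0.000778). Slc39a8, which imports zinc and manganese, rose by 0.25 ± 0.06 (adjusted p = 0.0142) but not with upper quartile scaling, total counts, or without IFN-γ replicate 1 or 3 or untreated replicate 3. Slc39a7, which releases zinc from the endoplasmic reticulum, was at 136 ± 2.29 CPM with IFN-γ and 140.5 ± 12.0 CPM untreated and was not called (adjusted p = 0.635); 74.5% of its sequence is shared with Gm20427. The zinc-binding metallothionein gene Mt2 rose by 1.61 ± 0.10 (adjusted p = 7.38e-06), to 118 CPM with IFN-γ against 38.7 CPM untreated. Mt1, at 189.6 CPM with IFN-γ and 140.0 CPM untreated, rose by 0.44 ± 0.11 (adjusted p = 0.0173) and lost its call under 6 alternatives. The zinc sensor gene Mtf1 was not called (log2 fold change 0.16 ± 0.08, adjusted p = 0.138).

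**Figure D3:**
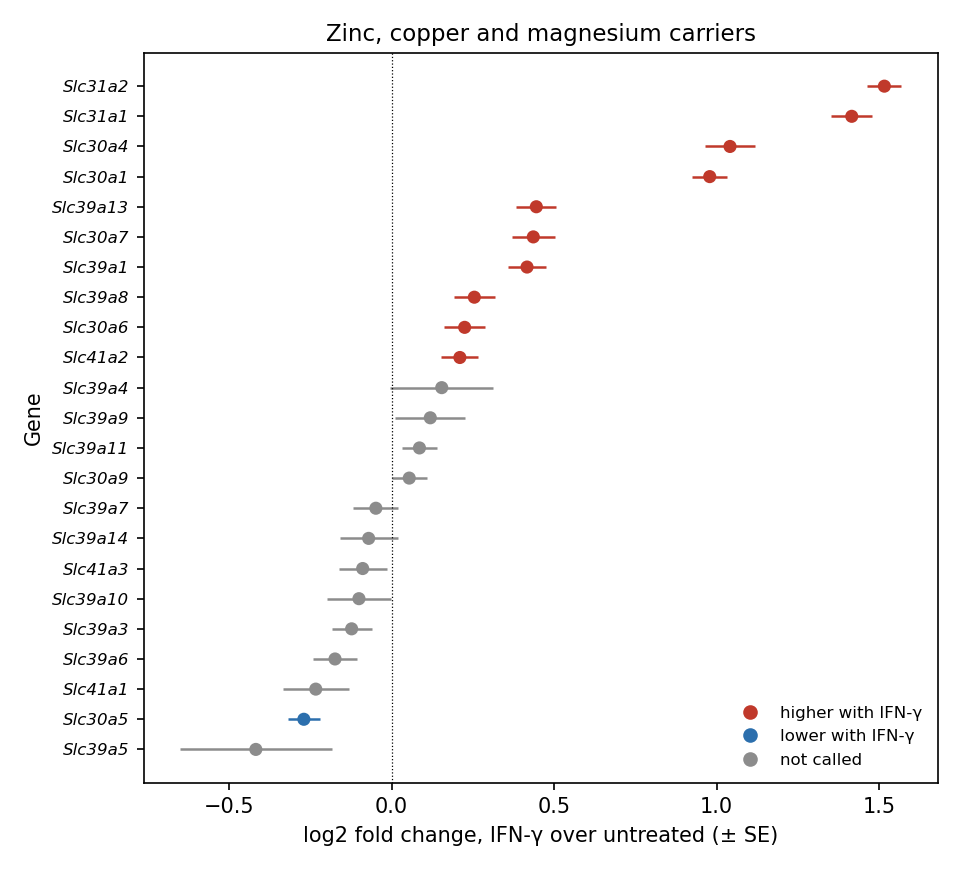
Log2 fold change (IFN-γ over untreated, ± SE from the fit) of the 23 zinc, copper and magnesium carriers, coloured by call. The copper carriers Slc31a2 and Slc31a1 lie near 1.5, Slc30a4 and Slc30a1 near 1, and the remaining members within 0.5 of 0.

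Amino acid and peptide carriers split, with peptide carriers up and several plasma membrane amino acid carriers down. Of 27 members, 7 rose (25.9%, against 19.6% of all genes), 10 fell (37.0%, against 16.8%) and 10 were not called. The median log2 fold change was -0.087. With upper quartile scaling or total counts 4 rose and 14 fell, where 13.9% and 12.8% of all genes rose and 31.6% and 34.9% fell. Without IFN-γ replicate 1 or 2 or untreated replicate 1, 4 rose. Without IFN-γ replicate 3 or untreated replicate 1, 7 fell, and without untreated replicate 2, 8 rose and 12 fell. All 3 members of the SLC15 peptide family rose. Beside Slc15a3, the plasma membrane peptide carrier gene Slc15a2 was at 2.83, 2.80 and 3.00 CPM with IFN-γ and 1.86, 1.52 and 1.57 CPM untreated, a log2 fold change of 0.80 ± 0.13 (adjusted p = 0.00187). Slc15a4, the endolysosomal relative of Slc15a3 that anchors the adaptor TASL beside Toll-like receptors, differed by a small margin. It had 50.9, 50.4 and 45.3 CPM with IFN-γ and 41.7, 43.6 and 40.7 CPM untreated, a log2 fold change of 0.22 ± 0.07 (adjusted p = 0.0348). That call was lost under 7 alternatives, among them total counts (0.05). Tasl itself rose by 0.79 ± 0.07 (adjusted p = 7.79e-05).

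Carriers of large neutral amino acids moved in opposite directions. Slc7a8, which encodes the exchanger LAT2, had 537, 459 and 449 CPM with IFN-γ and 365, 294 and 352 CPM untreated. It rose by 0.52 ± 0.10 (adjusted p = 0.00507), with no overlap between groups. Slc7a5, which encodes LAT1, the exchanger best known from dividing cells, was lower at 26.9, 24.1 and 22.9 CPM with IFN-γ and 34.2, 30.3 and 34.5 CPM untreated (log2 fold change -0.42 ± 0.08, adjusted p = 0.00523). The facilitator gene Slc43a2 averaged 308 ± 24.6 CPM with IFN-γ and 409.9 ± 44.0 CPM untreated, a log2 fold change of -0.41 ± 0.09 (adjusted p = 0.00982). Of its exon length, 24.8% lies under LOC118567916 on the other strand. Slc3a2, whose product CD98 is the heavy chain that brings LAT1 and LAT2 to the surface, was at 376 ± 13.8 CPM with IFN-γ and 327 ± 18.1 CPM untreated. It was called higher by 0.20 ± 0.06 (adjusted p = 0.0377) but lost the call under 8 alternatives, and its change with total counts was 0.03.

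Several carriers of glutamine, creatine and other small solutes were lower. Slc1a5, the glutamine exchanger gene, had 54.5, 53.2 and 52.3 CPM with IFN-γ, against 71.8, 71.2 and 70.0 CPM untreated. Its groups were tight and separate, with a log2 fold change of -0.41 ± 0.05 (adjusted p = 0.00043). Slc6a8, the creatine carrier gene, had 172, 170.2 and 164 CPM with IFN-γ, against 243, 237 and 249.98 CPM untreated, a log2 fold change of -0.53 ± 0.05 (adjusted p = 0.000112). Slc7a6, a cationic amino acid exchanger gene, fell with a log2 fold change of -0.71 ± 0.11 (adjusted p = 0.00172), and the glutamine and alanine carrier gene Slc38a2 with -0.35 ± 0.08 (adjusted p = 0.00918). Slc6a6, which takes up taurine and was among the most abundant members, did not pass the test, with 666, 531 and 509 CPM with IFN-γ and 659, 441 and 629 CPM untreated. Its spread within groups, with IFN-γ replicate 1 high and untreated replicate 2 low, exceeded the difference of -0.02 ± 0.16 on the log2 scale. Slc7a4 and Slc6a17 had the most negative values of the group (-0.77 ± 0.25 and -0.73 ± 0.21, adjusted p = 0.0455 and 0.0258). They averaged 0.762 and 0.788 CPM with IFN-γ, against 1.31 CPM each untreated, and lost their calls under 7 and 5 alternatives. Without this pair, which entered through untreated libraries alone, 25 of 125 members were lower.

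**Figure D4:**
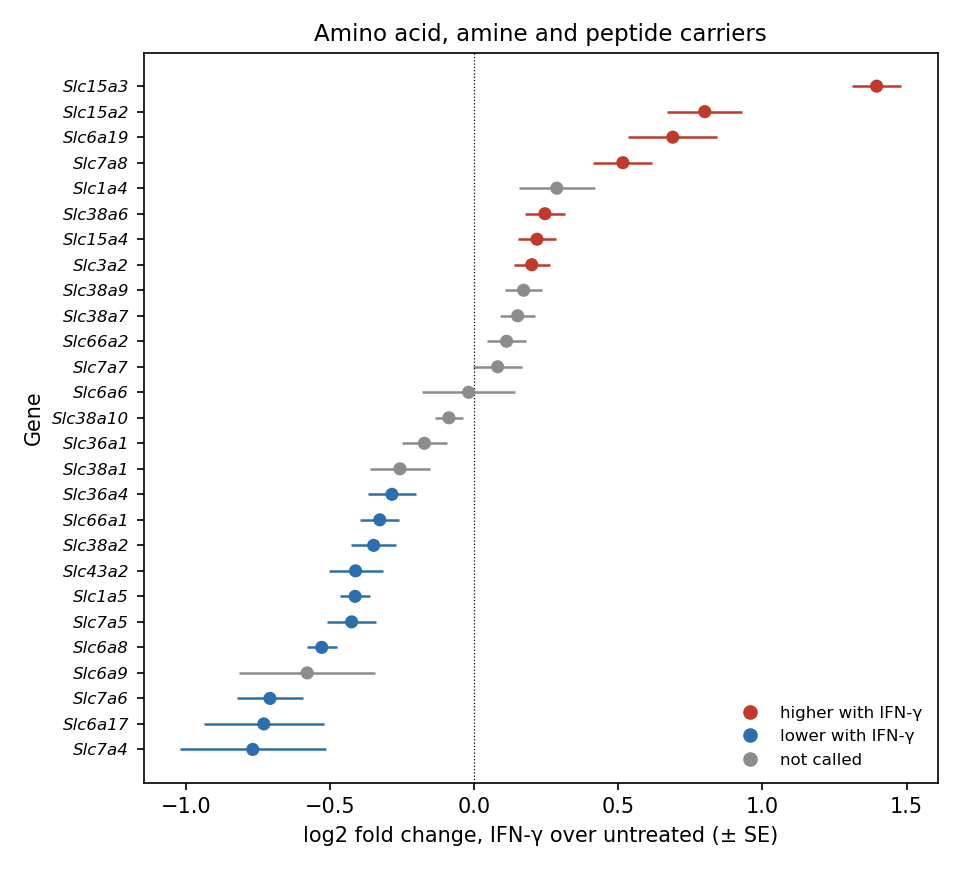
Log2 fold change (IFN-γ over untreated, ± SE from the fit) of the 27 amino acid, amine and peptide carriers, coloured by call. Slc15a3 stands at 1.40 above all others, Slc15a2 and Slc6a19 follow near 0.7 to 0.8, and the 10 fallen members lie between -0.28 and -0.77.

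Nucleoside and vitamin carriers also split. The group of nucleosides, vitamins, choline and haem had 17 members. Of these, 5 rose (29.4%, against 19.6% of all genes), 6 fell (35.3%, against 16.8%) and 6 were not called, with a median of -0.097. Without IFN-γ replicate 1, 3 rose, and without IFN-γ replicate 2, 3 fell. With total counts 3 rose and 9 fell, where 12.8% of all genes rose and 34.9% fell. Against the rise of the concentrative carrier gene Slc28a2, the equilibrative nucleoside carrier genes Slc29a1 and Slc29a2 were lower. Slc29a2 had 3.64, 3.26 and 2.93 CPM with IFN-γ and 4.49, 5.99 and 6.37 CPM untreated, a log2 fold change of -0.78 ± 0.15 (adjusted p = 0.00498). Slc29a1 averaged 54.0 ± 3.06 CPM with IFN-γ and 64.2 ± 2.51 CPM untreated, a log2 fold change of -0.25 ± 0.06 (adjusted p = 0.016), a call lost without IFN-γ replicate 2 or 3. The lysosomal nucleoside carrier gene Slc29a3 was not called (0.20 ± 0.12, adjusted p = 0.244). Slc17a9, which loads nucleotides such as ATP into vesicles, fell to 4.23 ± 0.367 CPM with IFN-γ, against 6.68 ± 0.173 CPM untreated, a log2 fold change of -0.66 ± 0.09 (adjusted p = 0.000918). In this gene 57.0% of the exon length lies under Gm30455 on the other strand, which had a mean of 4.33 counts, against 170.3 for Slc17a9.

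Among vitamin carriers, the thiamine carrier gene Slc19a2 and the reduced folate carrier gene Slc19a1 were lower, with log2 fold changes of -0.35 ± 0.07 (adjusted p = 0.00498) and -0.27 ± 0.07 (adjusted p = 0.0186). Slc19a1 lost its call without IFN-γ replicate 2. Slc49a4, a lysosomal carrier gene, had 17.2, 17.7 and 18.4 CPM with IFN-γ and 10.3, 10.2 and 9.87 CPM untreated, a clear separation, and rose by 0.81 ± 0.07 (adjusted p = 4.12e-05). Slc48a1, which moves haem out of phagolysosomes, was the most abundant of the group per length, at 323 TPM with IFN-γ and 382 TPM untreated. It had 406, 405 and 410.2 CPM with IFN-γ and 424, 473 and 437 CPM untreated. The groups did not overlap, but the log2 fold change of -0.13 ± 0.06 was not called (adjusted p = 0.144). It was called lower with upper quartile scaling and total counts.

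Of 12 sugar and polyol carriers, 3 rose (Slc2a6, Slc37a1 and Slc45a3), 4 fell and 5 were not called. Among all genes, 19.6% rose and 16.8% fell, and 36.4% were called, against 58.3% of the group. The share that fell was further above that of all genes than the share that rose. The 4 falls (Slc5a3, Slc2a3, Slc2a8 and Slc37a4) kept their call under all 14 alternatives. Slc2a3, the gene of the high-affinity glucose carrier GLUT3, had 13.0, 12.5 and 12.7 CPM with IFN-γ and 20.4, 15.9 and 18.6 CPM untreated. It thus differed in the opposite direction from its relative Slc2a6, with a log2 fold change of -0.52 ± 0.10 (adjusted p = 0.00373). Slc2a8, the gene of the intracellular GLUT8, fell with -0.41 ± 0.09 (adjusted p = 0.00976), and Slc2a9, a urate carrier gene, was not called (0.07 ± 0.09, adjusted p = 0.613). Slc5a3, the myo-inositol carrier gene, was at 2.93, 2.60 and 2.48 CPM with IFN-γ and 5.28, 5.04 and 4.48 CPM untreated, a log2 fold change of -0.88 ± 0.12 (adjusted p = 0.000562). Of its exon length, 1.3% lies under Mrps6 on the same strand. Mrps6 averaged 302 counts with IFN-γ and 415 untreated, against 118.5 for Slc5a3 over all libraries, and its part in the fall was not tested. Nfat5, whose product is known to raise Slc5a3 in high osmolarity, was not called (0.12 ± 0.14, adjusted p = 0.565). Slc37a2, a sugar phosphate exchanger gene of the endoplasmic reticulum, was the most abundant sugar carrier at 218 TPM with IFN-γ and 249 TPM untreated. Its 531, 456 and 456 CPM with IFN-γ overlapped its 530.3, 453 and 529 CPM untreated (log2 fold change -0.07 ± 0.09, adjusted p = 0.615).

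Of 21 carriers of inorganic ions and protons, 8 rose (38.1%), 2 fell (9.52%, Slc26a11 and Slc26a6) and 11 were not called. Among all genes, 19.6% rose and 16.8% fell. The group median was 0.156. Upper quartile scaling gave 5 higher and 5 lower with a median of 0.008, and total counts 4 and 5 with a median of -0.014. Both medians stayed above those of all genes under the same scaling, -0.161 and -0.184. With upper quartile scaling 13.9% of all genes rose and 31.6% fell, and with total counts 12.8% and 34.9%. Without IFN-γ replicate 1, 4 rose and 2 fell, and without IFN-γ replicate 2, 4 rose and 1 fell. Without IFN-γ replicate 3 or untreated replicate 1 or 3, 1 fell, and without untreated replicate 2, 4 fell. Slc12a7, a potassium-chloride cotransporter gene, averaged 88.1 ± 11.9 CPM with IFN-γ and 49.2 ± 5.02 CPM untreated, a rise of 0.84 ± 0.11 (adjusted p = 0.000595). Slc4a7, a sodium-bicarbonate cotransporter gene, had 167, 164 and 163 CPM with IFN-γ and 109.6, 83.2 and 107 CPM untreated and rose by 0.72 ± 0.10 (adjusted p = 0.000829). Slc8a1, the sodium-calcium exchanger gene, rose by 0.60 ± 0.10 (adjusted p = 0.00227). These 3 kept their call under all 14 alternatives. Slc26a2, a sulphate carrier gene, had the largest value of the rises, 0.88 ± 0.23 (adjusted p = 0.017), at 21.8, 19.5 and 16.5 CPM with IFN-γ and 13.2, 6.53 and 11.6 CPM untreated. Its spread within groups was wide, and it was not called without IFN-γ replicate 1 or 2. Slc20a1, the phosphate carrier gene with the highest level of the group per length (43.9 TPM with IFN-γ and 47.4 TPM untreated), was at 164 ± 8.73 CPM with IFN-γ and 163 ± 8.52 CPM untreated and did not pass the test (0.01 ± 0.06, adjusted p = 0.92).

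Of 18 carriers of carboxylates, lipids and organic ions, 2 rose (11.1%), 3 fell (16.7%) and 13 were not called. Among all genes, 19.6% rose and 16.8% fell, and 36.4% were called, against 27.8% of the group. The group had a median of -0.108 and no change of 2 times or more. With total counts none rose and 9 fell, where 12.8% of all genes rose and 34.9% fell. With upper quartile scaling 2 rose and 9 fell, where 13.9% of all genes rose and 31.6% fell. Counts moved with single libraries, to 1 higher and 1 lower without IFN-γ replicate 2 or untreated replicate 3, 1 and 3 without IFN-γ replicate 1, 2 and 1 without IFN-γ replicate 3, and 2 and 6 without untreated replicate 2. Slc16a10, which encodes a carrier of aromatic amino acids, was placed in this group with its family and not by that substrate. It had the highest TPM of the group over the 6 libraries, with 102 TPM with IFN-γ and 89.9 TPM untreated. Slc27a1 was higher untreated, at 94.4 TPM. Slc16a10 had 344, 338 and 332 CPM with IFN-γ and 281, 261 and 277 CPM untreated. It rose by 0.31 ± 0.06 (adjusted p = 0.0031), a call lost with total counts (0.14). Slc22a4, the ergothioneine carrier gene, averaged 16.7 ± 0.956 CPM with IFN-γ and 21.6 ± 0.401 CPM untreated without overlap, a log2 fold change of -0.37 ± 0.07 (adjusted p = 0.00397). The organic ion carrier gene Slc22a15 averaged 6.80 ± 0.707 CPM with IFN-γ and 4.75 ± 0.750 CPM untreated and rose by 0.52 ± 0.13 (adjusted p = 0.0177). It lost its call with total counts and without IFN-γ replicate 1 or 2 or untreated replicate 3. The fatty acid transport genes Slc27a1 and Slc27a4 were lower by a like amount, with log2 fold changes of -0.25 ± 0.07 each (adjusted p = 0.025 and 0.0204), and lost their calls without IFN-γ replicate 2 or 3 or untreated replicate 3.

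Carriers of nucleotide sugars and acetyl-CoA had log2 fold changes between -0.21 and 0.13. Of 6 members, 1 fell (16.7%, against 16.8% of all genes) and none rose (against 19.6%). The CMP-sialic acid carrier gene Slc35a1 had 20.5, 21.2 and 21.04 CPM with IFN-γ and 23.5, 25.4 and 24.0 CPM untreated (log2 fold change -0.21 ± 0.06, adjusted p = 0.0306). It lost its call without a low-count filter, with DESeq2, and without any 1 IFN-γ replicate or untreated replicate 3. Slc35a4, the most abundant of the group, was at 101 ± 2.89 CPM with IFN-γ and 99.1 ± 2.65 CPM untreated (0.03 ± 0.05, adjusted p = 0.72). The 3 members that are no carriers were not called. The scaffold gene Slc9a3r1 had 91.5 ± 1.76 CPM with IFN-γ and 96.0 ± 4.23 CPM untreated (-0.07 ± 0.06, adjusted p = 0.368).

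Summed per length, the members came to 4169 ± 328 TPM with IFN-γ and 3708 ± 360 TPM untreated (SD, n = 3 each). The metal carriers held 1049, 998.6 and 987 TPM with IFN-γ, against 772, 702.5 and 788 TPM untreated, a ratio of means of 1.34 with no overlap between groups. For amino acid and peptide carriers the sums were 1482, 1225 and 1185 TPM with IFN-γ and 1192, 928 and 1183 TPM untreated, and the groups overlapped. Slc15a3 alone made up 530.4 ± 79.0 TPM of this with IFN-γ and 219 ± 22.3 TPM untreated. The sums were not tested, and TPM are relative to all other transcripts of a library. Ordered by mean TPM over the 6 libraries, the most abundant members were Slc15a3 (375), Slc48a1 (353), Slc37a2 (233), Slc6a6 (168), Slc39a1 (162), Slc31a2 (144) and Slc31a1 (125). With IFN-γ, Slc15a3 (530.4 ± 79.0 TPM) stood above Slc48a1 (323 ± 10.3 TPM), while in untreated macrophages Slc48a1 (382 ± 10.4 TPM) stood above Slc15a3 (219 ± 22.3 TPM).

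**Figure D5:**
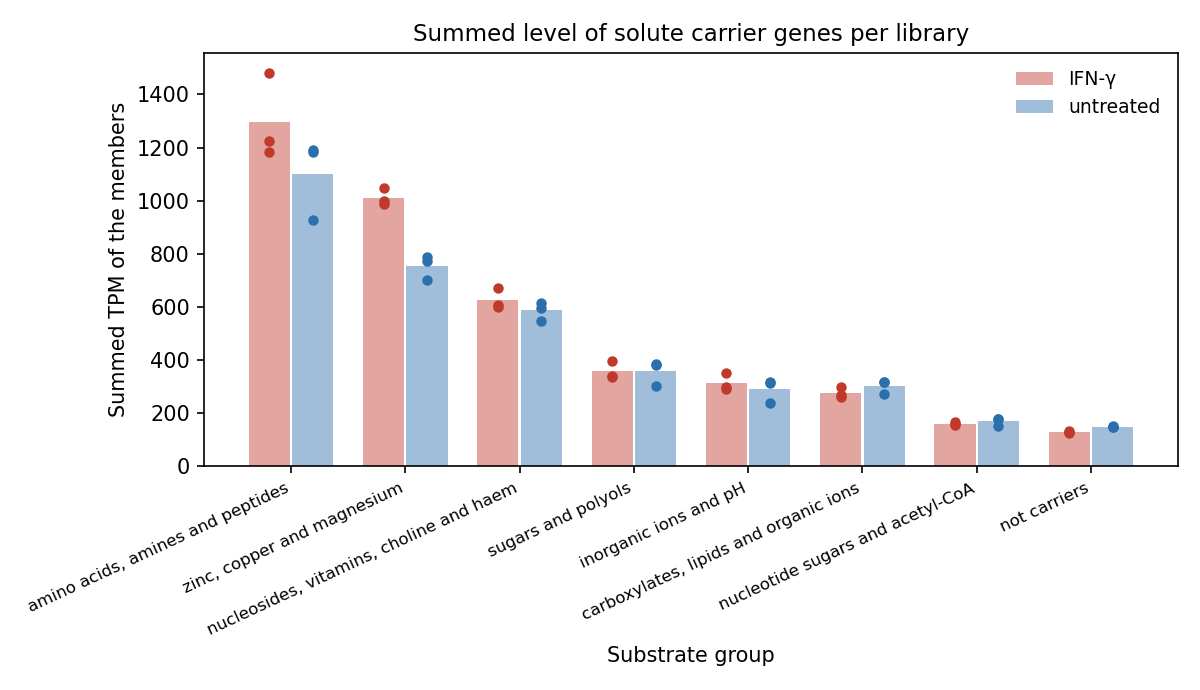
Summed TPM of the members of each substrate group per library (IFN-γ left, untreated right, bars are means of 3 libraries, points are libraries). The metal carriers stand at 1012 TPM with IFN-γ and 754 TPM untreated without overlap, and untreated replicate 2 is the lowest point of the untreated libraries in most groups.

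A further list mixed carrier partners and pumps, anion channel and exchanger genes, and genes of the zinc, osmolarity and amino acid responses. Of 25 listed genes, 21 were tested, 10 rose (47.6%, against 19.6% of all genes) and none fell (against 16.8%). The rises included the response genes Mt1, Mt2 and Atf4 and the channel gene Lrrc8c, so the share is not one of partners and pumps alone. Total counts gave 7 higher and 2 lower, where 12.8% of all genes rose and 34.9% fell. Upper quartile scaling gave 8 and 2, where 13.9% of all genes rose and 31.6% fell. Without untreated replicate 2, 11 rose and 1 fell. Over all genes that fit gave 3174 higher and 2793 lower, against 2539 and 2176 with every library. Lrrc8c, a subunit of the volume-regulated anion channel, rose by 1.83 ± 0.08 (adjusted p = 6.22e-07), to 65.5 CPM with IFN-γ against 18.4 CPM untreated. Its fellow subunit genes Lrrc8a, Lrrc8b and Lrrc8d were not called (-0.07 ± 0.07, 0.22 ± 0.08 and 0.12 ± 0.08). Stk39, a kinase of chloride cotransporters, rose by 1.49 ± 0.21 (adjusted p = 0.000778), and Clcn7, the lysosomal chloride-proton exchanger gene, by 1.03 ± 0.08 (adjusted p = 3.35e-05). Of the monocarboxylate carrier chaperones, Emb rose by 0.55 ± 0.05 (adjusted p = 9.2e-05) and Bsg was not called (0.06 ± 0.09). Atp1b3, a subunit gene of the sodium pump, rose by 0.39 ± 0.06 (adjusted p = 0.00155).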

How the data were processed

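Per the labels' protocols, RNA was extracted with Trizol and made into libraries with the KAPA stranded mRNA kit. HISAT2 and mm10 are named in the submitters' processing notes, with no version. The sources used here name no counting tool and no strand setting, so reads of overlapping genes on opposite strands may not have been told apart. Coordinates are those of the tables. Only 2 of 127 members had the same start and end in RefSeq GRCm38.p6, so the build is left unnamed.

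Tests used the counts as deposited by the authors, whole numbers per gene without normalization. The TPM deposited by the authors served to compare levels between genes. The FPKM deposited by the authors were not used. Counts were fitted with edgeR 4.0.16 in R 4.3.3 (filterByExpr with minimum count 10 and total 15, TMM, glmQLFit and glmQLFTest, two-sided, Benjamini-Hochberg over 12968 genes, threshold 0.05), after a test on simulated data. CPM use TMM-scaled library sizes. Each SE was derived from the F statistic (log2 fold change over its square root). Substrate groups follow the family number, with exceptions for single genes.

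Members and lists were chosen with earlier results of these data known. Named by rule were called members at 2 times or more, and per group the largest rise, the largest fall and the highest TPM, 23 members in all. Other members, and the promoters of Slc37a1 and Slc22a15, were chosen after their values were seen. Values of a few single genes are not reported here. Alternatives covered scaling (RLE, upper quartile, or totals alone), filtering (none, or 1 CPM in 3 libraries), DESeq2 1.42.0, limma-voom (limma 3.58.1), the replicate number as a block, and each library left out. Sharing of 50-base stretches used GENCODE M21, in which 124 members matched by symbol, and 10 shared 10% or more with another gene. Figures used Python 3.11.15 and matplotlib 3.10.9.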

Additional observations from a re-analysis of the deposited data

How the results depend on the processing

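The main settings gave 35 members higher and 27 lower. RLE scaling gave 35 and 28, upper quartile scaling 25 and 49, total counts alone 21 and 52, no filter 32 and 25, a filter of 1 CPM 35 and 28, DESeq2 35 and 22, and limma-voom 36 and 26. Over all genes the main settings gave 2539 higher and 2176 lower. RLE scaling gave 2525 and 2197 of all genes, upper quartile scaling 1803 and 4097, and total counts 1666 and 4520. The all-gene counts were 2527 and 2038 with no filter, 2289 and 2241 with the 1 CPM filter, 2511 and 1914 with DESeq2, and 2558 and 2155 with limma-voom. Leaving out 1 library at a time gave 23 to 36 higher and 18 to 35 lower, with 23 higher without IFN-γ replicate 1 and 35 lower without untreated replicate 2. Without IFN-γ replicates 1, 2 and 3, the all-gene counts were 2028 and 1742, 1991 and 1451, and 2043 and 1491. Without untreated replicates 1, 2 and 3, they were 2432 and 1915, 3174 and 2793, and 2045 and 1669. A threshold of 5 CPM in 3 libraries left 109 members, and 1 CPM in all 6 libraries left 122. Of the 18 called members named by rule, 13 kept their call under all 14 alternatives. Those that lost it under some were Slc7a4, Slc22a15, Slc16a10, Slc26a2 and Slc35a1. Upper quartile scaling and total counts turned the sign of the uncalled Slc20a1 (-0.137 and -0.161) and Slc35a4 (-0.119 and -0.142), as did a filter of 1 CPM for Slc20a1 (-0.008). Over the left-out libraries Slc20a1 ranged from -0.046 to 0.045 and Slc35a4 from -0.009 to 0.045. The cause was not tested beyond the shift of all genes that these scalings bring.

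The replicate number as a block gave 37 members higher and 30 lower, and 2723 and 2327 of all genes. Deviations of same-numbered libraries from their group means correlated at 0.306, 0.144 and -0.07, against -0.34 to 0.241 for libraries of different numbers. With 3 libraries per group, these values cannot decide whether the numbers pair the libraries. Depth limits the lowest members, such as Slc7a4 with 18 to 49 counts per library.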

Other observations

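Several members act on lysosomes or endosomes, a grouping made after the values were seen and not tested. Slc2a6, Slc15a3 and Slc49a4 rose by 2.47, 1.40 and 0.81 on the log2 scale, and the lysosomal exporter gene of cationic amino acids, Slc66a1, had -0.33 ± 0.07 (adjusted p = 0.00595, edgeR). The lysosomal amino acid sensor gene Slc38a9 (0.17 ± 0.06, adjusted p = 0.0683), the glutamine exporter gene Slc38a7 (0.15 ± 0.06, adjusted p = 0.0839), the sialic acid exporter gene Slc17a5 (-0.17 ± 0.07, adjusted p = 0.109) and Slc46a3 (0.06 ± 0.08, adjusted p = 0.569) were not called.

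Of 30 listed carriers named outside the Slc series, 22 were tested, 5 rose (22.7%, against 19.6% of all genes) and 6 fell (27.3%, against 16.8%). Total counts gave 3 higher and 12 lower, where 12.8% of all genes rose and 34.9% fell. Upper quartile scaling gave 5 and 11, where 13.9% of all genes rose and 31.6% fell. Slco3a1, an organic anion carrier gene, had a larger change than any member, at 68.6 CPM with IFN-γ and 5.21 CPM untreated, a rise of 3.71 ± 0.07 (adjusted p = 1.14e-08, edgeR). Its relative Slco2b1 was at 1.99 CPM with IFN-γ and 4.87 CPM untreated, a log2 fold change of -1.29 ± 0.10 (adjusted p = 2.17e-05). The haem and choline carrier gene Flvcr1 fell with -0.64 ± 0.05 (adjusted p = 3.74e-05), and the partner of endosomal Toll-like receptors Unc93b1 rose by 0.40 ± 0.05 (adjusted p = 0.000668).

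Members that follow each other on a chromosome within 500 kb, whatever other genes lie between, made 13 pairs. Of these, 3 had both genes higher with IFN-γ: Slc31a2 with Slc31a1, Slc28a2 with Slc30a4, and Slc6a19 with Slc12a7 (0.69 and 0.84, 32.3 kb apart). Of all members, 27.6% were higher, against 19.6% of all genes. The share of such pairs among all genes was not computed, so the count says nothing on shared control. In 1 pair, Slc12a4 and Slc7a6, the genes were called in opposite directions (0.24 and -0.71).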
